A study of Mus musculus with 4 samples.

Results

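Interleukin and TNF superfamily genes encode the cytokines, receptors, decoys and binding proteins of the corresponding signalling families. Members were taken by gene symbol, as every interleukin symbol that begins with Il and a digit, Tnf itself, and every Tnfsf and Tnfrsf symbol that carries a number. The rule found 116 genes among the 50593 genes of the table, of which 83 were interleukin symbols and 33 belonged to the TNF and TNF receptor superfamilies. The rule also takes Il4i1, an amino acid oxidase that is neither a cytokine nor a receptor, and the antisense RNAs Il1bos and Tnfsf13os.

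RNA was sequenced from the sciatic nerve of mice aged 6 months, of the strain labelled 129S1/SvImJ, with 2 samples in each of 2 groups. HSF V30M mice carry a transgene for the human transthyretin variant V30M, lack endogenous transthyretin and are heterozygous for a deletion of Hsf1, the gene of a heat shock transcription factor. HSF WT mice have no transgene and carry the same heterozygous Hsf1 deletion, so the deletion is shared by both groups. The promoter that drives the transgene is not given in the sources used here. The comparison asks how the nerve of the transgenic mice differs from that of the control mice. Each gene has 1 value per group, which the authors pooled over the mice, so no spread between mice could be measured and no difference was tested.

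Interleukins and TNF superfamily ligands are secreted or membrane-bound signals that bind receptors on nearby cells. Many interleukin receptors share a chain, such as the common gamma chain Il2rg or the signal transducer Il6st, and pass the signal to JAK kinases and STAT factors, whereas IL-1 and TNF receptors recruit adaptors that lead to NF-kappaB. In peripheral nerve, Schwann cells, fibroblasts and resident macrophages make and receive such signals, most of all after injury.

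Values are FPKM, fragments counted relative to transcript length and to all mapped fragments. A log2 ratio is that of HSF V30M over HSF WT after adding 1 to each FPKM, which understates differences of low genes. A gene was counted as higher or lower in HSF V30M where this ratio passed a fold of 1.5 and the higher group had an FPKM of at least 1. A ratio given with an interval is that of the plain FPKM, with nothing added. The genotype itself was looked at first. Mouse Ttr, the transthyretin gene, had 6.10 FPKM in the transgenic group and was listed at 0 in the control group, and whether these fragments came from the human transgene was not tested. Hsf1 had 7.94 FPKM in HSF V30M and 14.95 in HSF WT, a log2 ratio of -0.84, although both groups carry its deletion on 1 allele by their description. The Hsf1 level thus differed between the groups beside every result given here, and its part in them was not tested. As a check of the tissue, a further list of 10 Schwann cell markers was used, kept apart from the list of myelinating markers. It is not a list of non-myelinating cells alone. All 10 of its genes reached an FPKM of 1. Of these 5 were above and 5 below their control value. Foxd3 and S100b were higher and Gfap was lower by the fold, with 328 and 201 FPKM for S100b and 2.28 and 8.77 FPKM for Gfap. Skeletal muscle markers, which belong to a neighbouring tissue, summed to 42.5 FPKM in HSF V30M and 161 in HSF WT.

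Most of the cytokine genes were low, and the receptors were the better measured side. Of the 116 members, 59 reached an FPKM of 1 in at least 1 group, 57 did not, and 17 were listed at 0 in both groups. Among 49 ligand genes 14 reached the minimum, and among 55 receptor genes 40 did. The genes listed at 0 in both groups included Il17a and Il17f, the ligands of inflammatory T cells, and Il13 and Il9, ligands of type 2 immunity. A member that reached the minimum in its higher group alone had to differ, so the counts that follow describe the measured members and are not evidence for a direction.

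In HSF V30M 3 members were higher and 9 were lower. The 3 higher members were 5.08% of the 59 measured members, against 9.11% of all 16579 genes at the same minimum, or 5.29% of the 13054 protein-coding genes. The 9 lower members were 15.3%, against 9.44% of all genes or 5.73% of protein-coding genes. The remaining 47 members did not pass the fold. The median log2 ratio of the measured members was -0.13, against 0.0037 for all genes at the minimum, with 24 members above 0 and 35 below it. When every member with a value above 0 in either group was taken, 99 in all, the median was -0.057. Among 40 measured receptors 7 were lower, which is 17.5% and near the 15.3% of all measured members, and 0 were higher. Among 14 measured ligands 2 were higher and 1 was lower. Among 4 measured antagonists and decoys 1 was higher, Tnfrsf11b, which is itself a gene of the TNF receptor superfamily, so the count of 0 higher receptors rests on its being counted as a decoy. Of the 25 members with an FPKM of at least 5, 2 were higher and 2 were lower, 8% each way. All genes at that minimum gave 7.98% and 7.57%, and protein-coding genes gave 4.59% and 4.57%. Of the 34 members between 1 and 5, 1 was higher and 7 were lower, or 2.94% and 20.6%, against 7.22% and 8.96% of protein-coding genes at that level. The shares of all genes, which exceeded those of protein-coding genes at a minimum of 1 and of 5, were not worked out for that level. The counts depend on the limits chosen, since a pseudocount of 0.1 gave 7 higher and 14 lower members of 59, against 12.6% and 12.4% of all genes, and the median of the 33 measured members that share their place in the table with no other gene was -0.015.

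**Figure D1:**
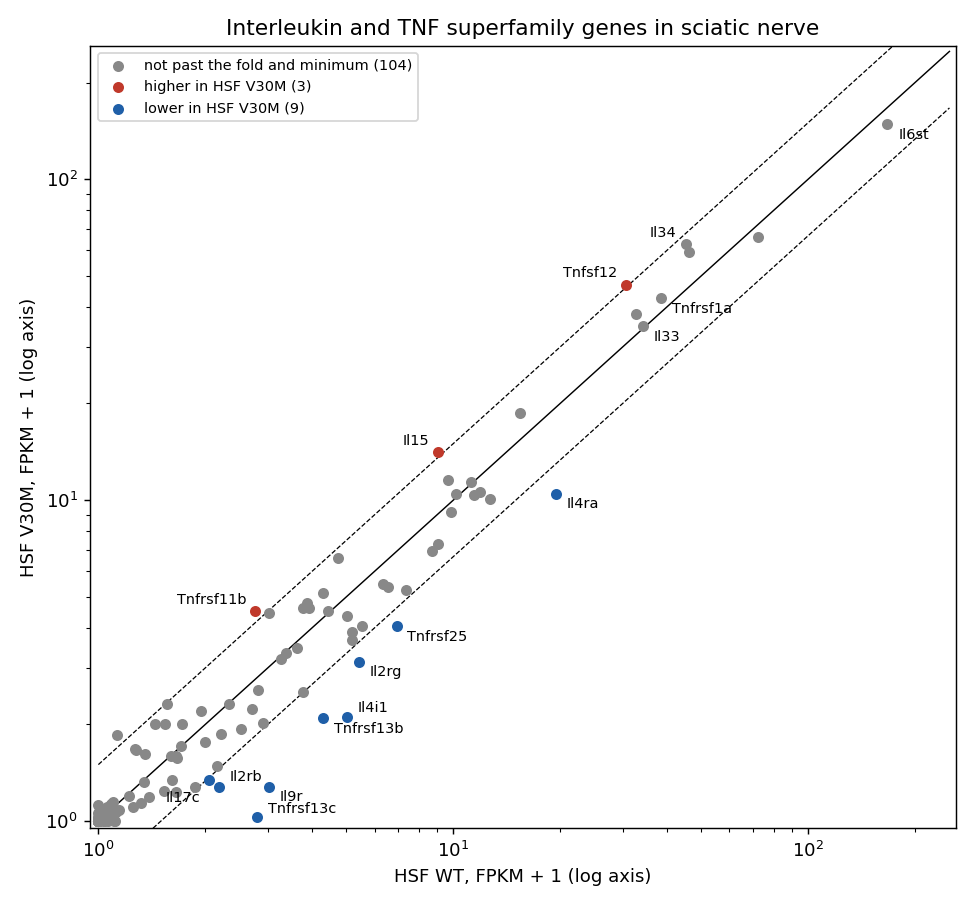
FPKM + 1 of the 116 members in HSF WT (x axis, log scale) and HSF V30M (y axis, log scale), 1 point per gene, with the line of equal values and dashed lines at a fold of 1.5. The 9 lower members lie below the lower dashed line, and the 3 higher members lie just above the upper one. Tnfsf13os, which is under the minimum FPKM, also lies above the upper line.

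The abundant ligands of the nerve came from several families. Il34, a ligand of the macrophage receptor Csf1r, had 61.9 FPKM in HSF V30M and 44.1 in HSF WT, a log2 ratio of 0.48. Il16, which encodes a precursor that is cut to a chemoattractant for CD4+ cells, had 58.3 and 45.1 FPKM. Il33, an alarmin stored in the nucleus, had 33.8 and 33.2 FPKM, a difference within counting error. None of these passed the fold, although Il34 and Il16 were above their control value. Tnfsf12, which encodes the cytokine TWEAK, did pass it, with 45.9 FPKM in HSF V30M and 29.7 in HSF WT.

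The cytokines that are usually measured as signs of inflammation were low, under an FPKM of 1 in both groups. Tnf had 0.68 FPKM in HSF V30M and 0.268 in HSF WT. Il1b had 0.57 and 0.665 FPKM, and Il6 had 0.10 and 0.063 FPKM. To give the precision of such values, the fragments behind them were worked out from the steps in which low FPKM fall. A 95% exact interval was then taken from the lowest number that a gene's coding transcripts allow. It was a Poisson interval for the value of a group, and a binomial interval for a ratio of the groups. These intervals cover counting error only, and say nothing of differences between mice. For Tnf the lowest numbers were 19 and 5 fragments, and the ratio of HSF V30M to HSF WT was 2.54 with an interval from 0.916 to 8.69. The interval held a ratio of 1 for Il1b as well, from 0.368 to 2.03. Il6 rested on as little as 1 fragment in each group. By the lowest numbers, no difference beyond counting error was seen for these cytokines. For Tnf the transcripts allow up to 25 and 8 fragments, and the interval at those numbers was not worked out. Most of their receptors had higher levels. Tnfrsf1a, the widely expressed TNF receptor, had 41.5 FPKM in HSF V30M and 37.5 in HSF WT, and Tnfrsf1b, the TNF receptor of immune cells, had 4.36 and 5.55 FPKM. Il1r1, the signalling receptor of IL-1, had 8.19 and 8.85 FPKM and its partner Il1rap had 10.4 and 10.2. The decoy receptor Il1r2 was under the minimum, with 0.62 and 0.357 FPKM on as little as 2 and 1 fragments. Il6ra, the receptor of IL-6, had 10.5 and 8.67 FPKM. None of these receptors passed the fold.

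The 3 higher members had different functions. Tnfrsf11b (chr15:54250619-54278484, minus strand, GRCm38) encodes osteoprotegerin, a secreted decoy that binds the ligand of the receptor RANK, and had 3.51 FPKM in HSF V30M and 1.76 in HSF WT. Its ratio was 1.99, with a counting interval from 1.51 to 2.65. Its ligand Tnfsf11 had 0.02 and 0.024 FPKM, or about 1 fragment in each group. Il15 (chr8:82331632-82403222, minus strand) encodes a cytokine that sustains natural killer cells and memory T cells, and had 13.1 and 8.06 FPKM, a ratio of 1.63 with an interval from 1.03 to 2.61. The receptor chain that presents IL-15, Il15ra, had 9.48 and 9.18 FPKM and did not pass the fold. Tnfsf12 (chr11:69686250-69695849, minus strand) had a ratio of 1.55 with an interval from 1.13 to 2.13, and was the higher member nearest to the fold, at a log2 ratio of 0.61. It shares its place in the table with Tnfsf13, Tnfsf13os and the read-through gene Tnfsfm13, the last of which had 11.8 and 14.1 FPKM, so its fragments may have been divided among them. Tnfsf13, which encodes APRIL, had 3.52 and 3.45 FPKM. Tnfrsf12a, the receptor of TWEAK, had 9.57 and 10.9 FPKM and was not higher.

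The lower members were in part receptors of B cells. Tnfrsf13c (chr15:82221743-82224369, minus strand) encodes the receptor through which B cells receive the survival factor BAFF, and had 0.03 FPKM in HSF V30M and 1.80 in HSF WT. It rested on about 1 fragment in HSF V30M, and the ratio of HSF WT to HSF V30M was 60.2 with a counting interval from 8.90 to 2572. Tnfrsf13b (chr11:61126755-61149372, plus strand), the receptor TACI, had 1.09 and 3.30 FPKM, and its interval, from 0.812 to 13.7, held a ratio of 1. It shares its place with 1 other gene. BAFF itself, encoded by Tnfsf13b, had 4.26 FPKM in HSF V30M and 6.37 in HSF WT and did not pass the fold. The further receptor of BAFF and APRIL, Tnfrsf17, named after its values were seen, had 0.60 and 0.605 FPKM and did not pass the fold. Il4i1 (chr7:44816387-44840809, plus strand), the amino acid oxidase, had 1.11 and 4.01 FPKM. It shares its place with 5 other genes, among them Nup62 with 13.5 and 14.7 FPKM, so the division of fragments among them is uncertain.

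Of 8 measured receptors of the common gamma chain and IL-4/IL-13 family, 4 were lower and 0 were higher, beside 9.44% of all genes and 5.73% of protein-coding genes that were lower. Of these receptors, Il2rb, Il9r and Il7r reached the minimum through HSF WT alone, so they could not be higher. The count of lower receptors was thus set in part by the filter. The family has 1 further measured gene, the ligand Il15, which was higher. Il4ra (chr7:125552120-125579474, plus strand), the chain that binds IL-4 and IL-13, had 9.47 FPKM in HSF V30M and 18.4 in HSF WT. The HSF WT level was 1.94 times that of HSF V30M, with a counting interval from 1.32 to 2.88. It shares its place in the table with 1 other gene, so the division of fragments is uncertain. Of its ligands, Il4 had 0.71 FPKM in each group and Il13 was listed at 0. Il2rg (chrX:101264378-101268255, minus strand), the common gamma chain, had 2.14 and 4.41 FPKM, with an interval from 1.09 to 3.97 for the ratio of HSF WT to HSF V30M, and shares its place with 2 other genes. Il2rb (chr15:78479256-78495271, minus strand), the shared beta chain of the IL-2 and IL-15 receptors, had 0.28 and 1.18 FPKM, an interval from 2.02 to 9.65. Il9r (chr11:32187541-32200279, minus strand), the receptor of IL-9, had 0.28 and 2.02 FPKM, and the interval was 3.35 to 17.8. IL-15 had more ligand RNA and less RNA of both its signalling chains in HSF V30M. Among other ligands of these chains, Il2 had 0.09 and 0.102 FPKM, on as little as 2 and 1 fragments, and Il7 had 0.66 and 0.278 FPKM, both under the minimum. The other receptors of this family, beside Il15ra, were chosen after their values were seen. Il13ra1, which pairs with Il4ra in the receptor of IL-13, had 2.35 and 2.38 FPKM. Il2ra had 0.59 and 0.655 FPKM, under the minimum. Il7r had 0.48 and 1.16 FPKM, Il21r had 1.02 and 1.91 FPKM, and neither passed the fold, although both did with a pseudocount of 0.1. Il21r lies 51.3 kb after the start of Il4ra, and both were below their control value. In all, 54 members lay in 20 clusters with starts at most 250 kb apart, and neighbours also went opposite ways, such as Il17re and Il17rc at log2 ratios of -0.21 and 0.27, or Il1rl2 and Il1rl1 at -0.42 and 0.23. These pairs are examples picked by their values, and directions were not tallied over the clusters. The counting intervals of Il17re, Il17rc, Il1rl2 and Il1rl1 each held a ratio of 1, so their directions are uncertain.

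Tnfrsf25 (chr4:152115934-152120119, plus strand), a death receptor of T cells, had 3.04 FPKM in HSF V30M and 5.92 in HSF WT, and its ratio of HSF WT to HSF V30M had a counting interval from 1.48 to 2.57. Its ligand Tnfsf15 had 0.76 and 0.992 FPKM. Il17c (chr8:122422020-122423639, plus strand), an epithelial ligand, had 0.34 and 1.06 FPKM, at a log2 ratio of -0.62 the lower member nearest to the fold, on as little as 4 and 8 fragments. Its interval, from 0.832 to 14.1, held a ratio of 1, and the table places it in 1 region with 209 other genes. Its receptor chain Il17re had 3.34 and 4.01 FPKM. On the other side of the fold, Tnfsf10, the ligand TRAIL, had 1.52 and 2.76 FPKM and a log2 ratio of -0.58, and Il12rb1, a receptor chain of IL-12 and IL-23, had 1.31 and 0.565 FPKM and a log2 ratio of 0.56.

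**Figure D2:**
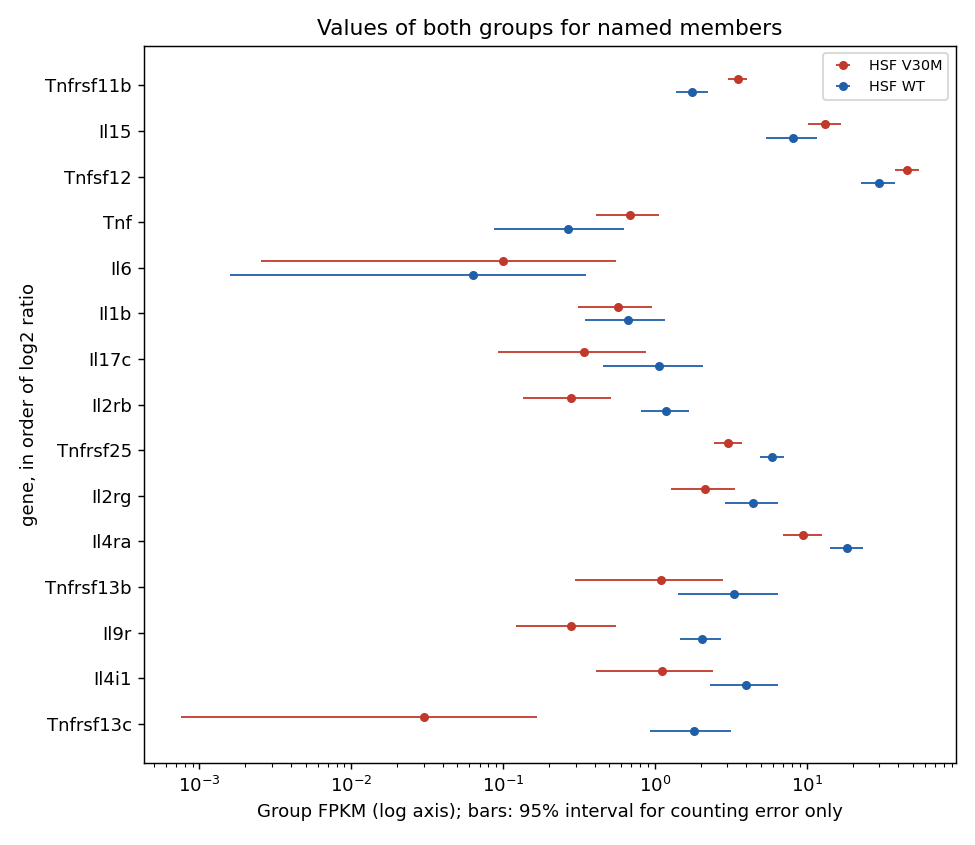
Group FPKM (x axis, log scale) of the 12 members that passed the fold and of Tnf, Il1b and Il6, with HSF V30M in red and HSF WT in blue and 95% intervals for counting error only. The intervals are widest for Tnfrsf13c and Il6, on about 1 fragment, and those of the groups overlap for Tnf, Il1b and Il6, and also for several members past the fold, such as Tnfrsf13b and Il17c.

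The most abundant members did not differ by the fold of 1.5, other than Tnfsf12, Il15 and Il4ra. The highest level was that of Il6st, the chain shared by the IL-6 family, with 147 FPKM in HSF V30M and 166 in HSF WT. Il11ra1, the receptor of IL-11, had 64.9 and 71.4 FPKM, but its near-identical copies make the division of fragments uncertain. Il10rb, a chain shared by IL-10 family receptors, had 37.1 and 31.7 FPKM, Il17rc, a chain of the IL-17 receptor, had 17.7 and 14.5 FPKM, and Tnfrsf14, the receptor HVEM, had 9.11 and 11.7 FPKM. By family, 0 of 8 measured IL-1 family genes, 0 of 3 IL-10 family genes and 0 of 6 IL-6/IL-12 family genes passed the fold in either direction. Against the shares of all genes given above, counts of 0 among so few genes set none of these families apart. Family medians are not compared, since several members, such as Il7r, Il2rb and Il9r, reached the minimum through HSF WT alone.

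**Figure D3:**
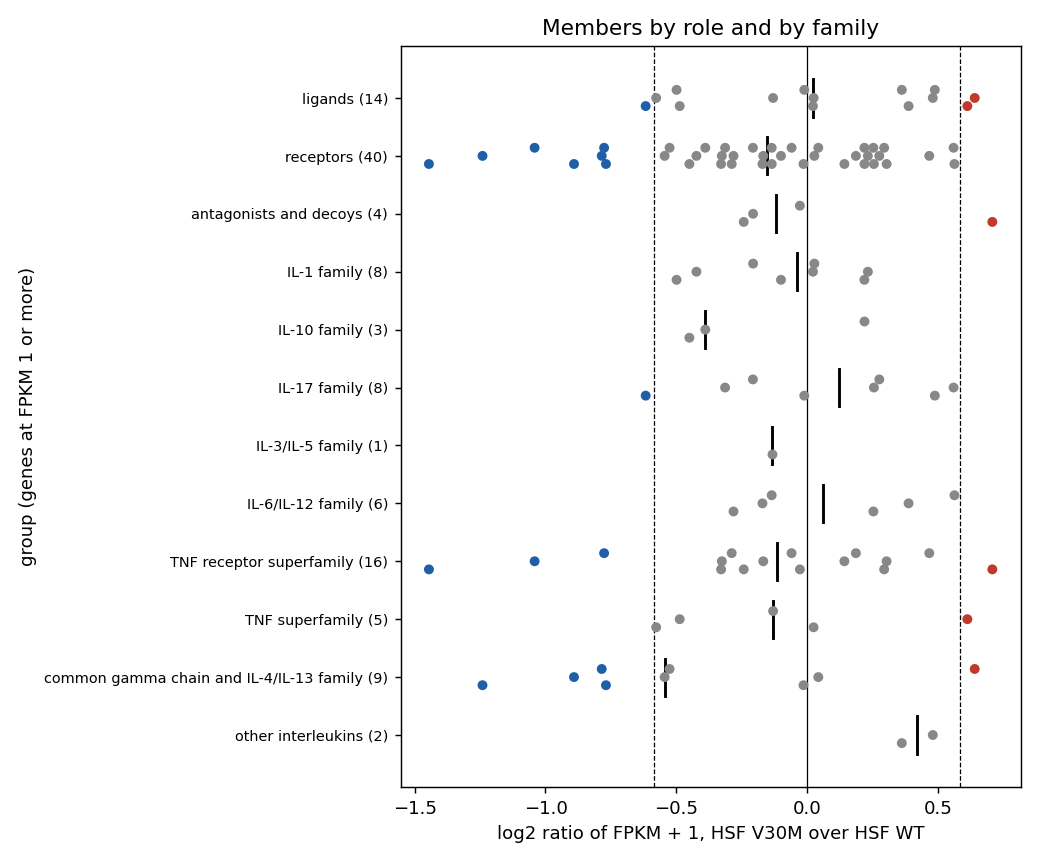
Log2 ratio of FPKM + 1 (x axis), HSF V30M over HSF WT, for the measured members by role and by family, 1 point per gene, with the median as a black bar and dashed lines at a fold of 1.5. The 7 lower receptors lie left of the lower dashed line, and 4 of them belong to the common gamma chain and IL-4/IL-13 family. Among these 4, Il2rb and Il9r reached the minimum through HSF WT alone.

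The promoters of the lower members are shown because several members were lower together. Windows of 250 bases before to 50 bases after a RefSeq gene start came from RefSeq on GRCm38.p6, and 8 of the 12 members that passed the fold had an entry, all of them lower members. Tnfrsf25 had a window at each of 2 starts, so 9 windows were searched, and the shares of all promoters are per window. Short motifs were searched on both strands. TTCNNNGAA, bound by STAT factors, was in 1 of the 9 windows, the second of Tnfrsf25, which is not printed, and in 8.30% of all 32851 promoters. The NF-kappaB motif, read as GGG, any 2 bases and then TTTCC, was in 2 windows (the first of Tnfrsf25, and Il4ra) and in 1.63% of all. GAGGAAGT, bound by PU.1, was in 1 window (Il4i1) and in 3.20% of all. A match is a description of these letters and shows no binding. In the 2 windows that follow, capitals mark the NF-kappaB motif as it reads on the printed strand. The match of Tnfrsf25 (chr4:152115684-152115983, plus strand) begins 218 bases before the RefSeq start. That of Il4ra (chr7:125552021-125552320, plus strand) begins 20 bases after the RefSeq start at 125552271, which lies inside the gene bounds given above.
Tnfrsf25: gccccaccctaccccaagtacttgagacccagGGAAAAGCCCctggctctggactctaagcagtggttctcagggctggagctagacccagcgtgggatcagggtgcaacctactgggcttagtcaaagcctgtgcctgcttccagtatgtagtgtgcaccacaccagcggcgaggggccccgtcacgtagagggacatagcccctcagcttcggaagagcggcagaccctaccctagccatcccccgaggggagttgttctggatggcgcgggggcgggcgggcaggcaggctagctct
Il4ra: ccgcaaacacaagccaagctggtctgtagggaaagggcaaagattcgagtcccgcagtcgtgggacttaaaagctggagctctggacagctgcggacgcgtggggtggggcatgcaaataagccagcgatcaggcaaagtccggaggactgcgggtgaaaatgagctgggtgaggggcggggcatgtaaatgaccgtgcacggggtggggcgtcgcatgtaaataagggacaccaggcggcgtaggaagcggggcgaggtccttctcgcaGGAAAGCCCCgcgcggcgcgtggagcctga

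Ligands and their receptors were set beside each other for 68 pairs, and in 12 of these both genes had an FPKM of at least 1 in both groups. The most abundant ligand of these was Il34, and its receptor Csf1r was present too, with 31.2 FPKM in HSF V30M and 36.0 in HSF WT. IL-17B and its receptor, which were chosen after their values were seen, were both above the control value without passing the fold. Il17b had 5.62 and 3.72 FPKM, and Il17rb had 4.12 and 3.29 FPKM. Il18 and its binding protein Il18bp, chosen likewise, were both below the control value, with 2.66 and 4.17 FPKM and with 4.48 and 5.33 FPKM. The counting intervals of Il17b, Il17rb, Il18 and Il18bp each held a ratio of 1.

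**Figure D4:**
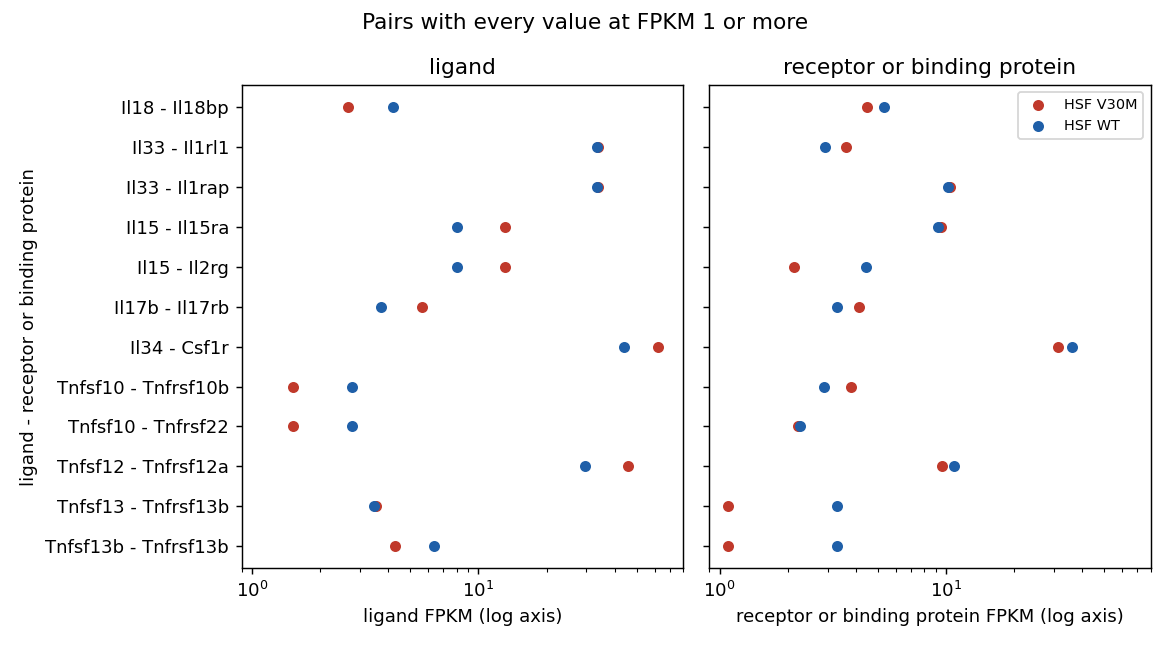
FPKM (x axis, log scale) of ligands (left) and of their receptors or binding proteins (right) in HSF V30M (red) and HSF WT (blue) for the 12 pairs with every value at 1 or more. For Il15 with Il2rg the ligand is higher and the receptor chain lower in HSF V30M.

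Of 79 pathway genes that carry other symbols 69 reached the minimum, 2 were higher and 5 were lower, and their median log2 ratio was -0.02. These are 2.90% and 7.25%, and the lower share lies between those of protein-coding genes (5.73%) and of all genes (9.44%). In the TNF family, 0 of 8 measured genes were higher and 2 were lower: Ltb, which encodes lymphotoxin beta, had 1.25 FPKM in HSF V30M and 4.20 in HSF WT, and Cd40, the costimulatory receptor of B cells, had 0.94 and 2.03 FPKM. Among 15 receptor partners and related cytokines, Clcf1, a ligand of the CNTF receptor, was higher at 4.64 and 2.42 FPKM. Csf1, the macrophage growth factor, was lower at 22.2 and 36.1 FPKM, as was Crlf2, the receptor of TSLP, at 2.45 and 4.45 FPKM. None of 15 JAK, STAT and SOCS genes passed the fold. Of 25 adaptor genes, Tnfaip3, which encodes the NF-kappaB inhibitor A20, was higher at 8.86 and 5.49 FPKM. Of 6 processing genes, Pycard, an inflammasome adaptor, was lower at 4.81 and 9.19 FPKM. The counting intervals of Tnfaip3 (0.958 to 2.80) and Clcf1 (0.764 to 5.43) for HSF V30M over HSF WT, and of Cd40 (0.512 to 10.4) for the inverse, held a ratio of 1.

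Markers of immune cells differed between the groups beside these receptors. All 10 listed B cell markers were below their control value in HSF V30M, and they summed to 4.05 FPKM against 28.2 in HSF WT, with Cd79a the most abundant by the mean of the groups, as for each list, at 0.65 and 7.09 FPKM. The 8 that reached the minimum and passed the fold did so through HSF WT alone, so that count was set by the filter. Of 11 listed T and NK cell markers 9 were below their control value and 1, Cd3d, was not, at 0.51 and 0.486 FPKM, with a sum of 5.15 against 19.98 FPKM, Cd2 the most abundant at 1.22 and 4.58 FPKM, and Ncr1 listed at 0 in both groups. Of 7 plasma cell markers 3 were lower: Jchain, which joins antibody chains, had 2.40 and 46.9 FPKM, Mzb1 had 0.24 and 6.12 FPKM, and Derl3 had 1.70 and 5.64 FPKM. The list summed to 122 and 175 FPKM, most of it from Sdc1 and Xbp1, which other cells also express. Sdc1 was the most abundant at 69.3 and 60.5 FPKM. Of 10 macrophage markers 2 were lower, with sums of 226 and 361 FPKM and C1qb the most abundant at 58.7 and 139 FPKM. Of 7 measured neutrophil markers 6 were higher and 1, Csf3r, was lower, with sums of 108 and 32.9 FPKM and S100a9 the most abundant at 59.0 and 13.8 FPKM. Of 7 measured mast cell markers 3 were lower, with sums of 138 and 210 FPKM and Tpsb2 the most abundant at 48.1 and 76.7 FPKM. The sums of each list run over all its genes, measured or not. None of 4 measured dendritic cell markers passed the fold, with sums of 12.3 and 16.5 FPKM and Zbtb46 the most abundant at 5.60 and 7.63 FPKM. The part of these cells in the levels of Tnfrsf13c, Il2rb, Il2rg, Il9r and the other members was not tested, and in whole nerve fewer cells of a type and less RNA per cell cannot be told apart.

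**Figure D5:**
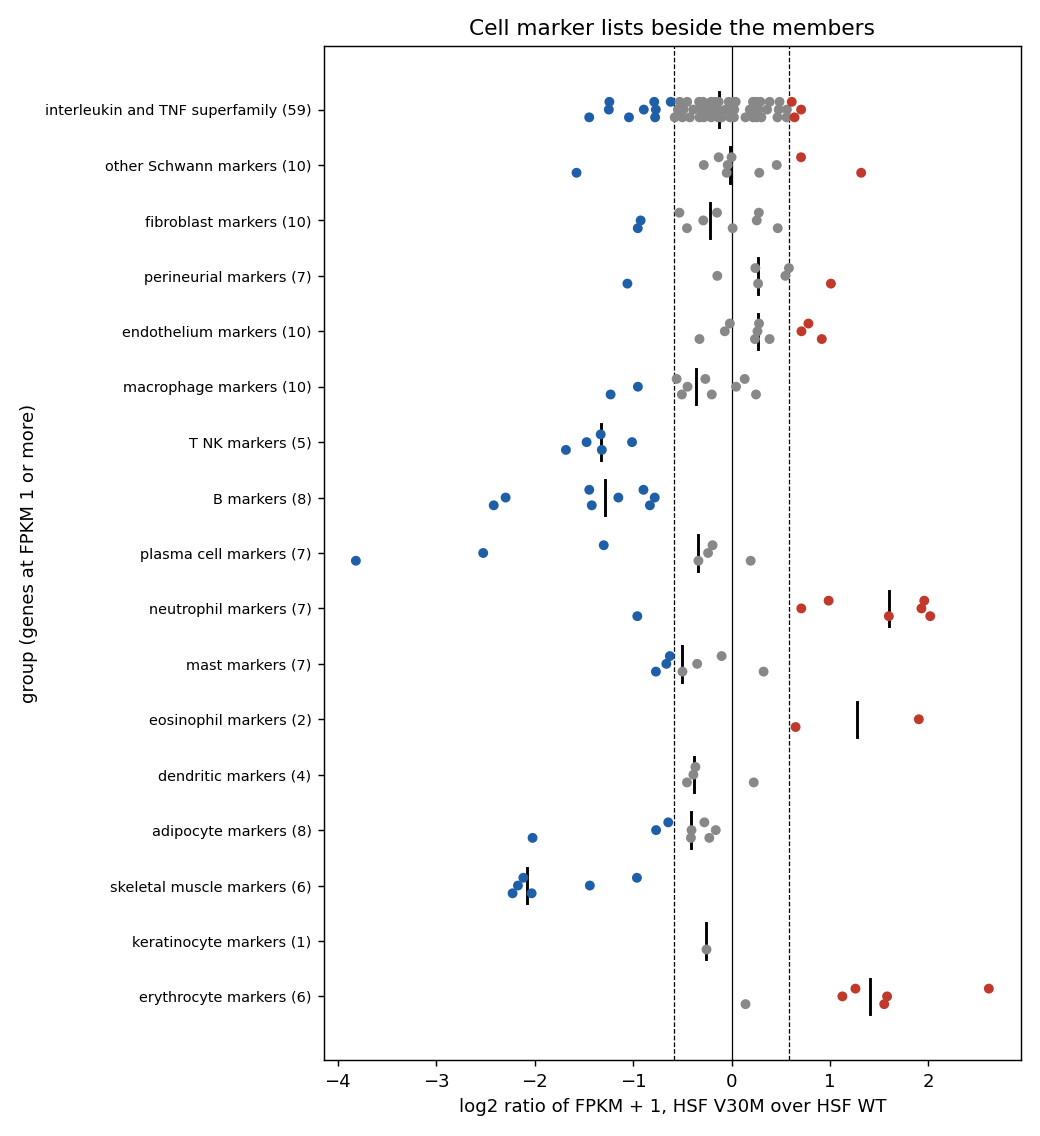
Log2 ratio of FPKM + 1 (x axis), HSF V30M over HSF WT, of the 59 measured members and of the lists of cell markers, 1 point per gene, with the median as a black bar and dashed lines at a fold of 1.5. The 8 B cell and 5 T and NK cell markers drawn are lower, most of them at the minimum in HSF WT alone, and 6 of 7 neutrophil markers are higher.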

How the data were processed

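RNA from sciatic nerves of 2 HSF V30M and 2 HSF WT mice was sequenced on Ion Torrent libraries. The number of mice is that of the labels, and the methods of the study give n = 4 without saying whether this is per group. Per the submitters' notes, the authors aligned reads to GRCm38 with STAR and used Cufflinks and Cuffdiff (versions not given). The deposited FPKM are 1 value per gene and group, with decimal commas, and those of HSF V30M are rounded to 2 decimals. The table also holds the authors' own log2 fold changes, test statistics, p-values, q-values and significance calls, which were not used. From the 50593 genes, 23 with too many alignments were left out.

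Log2 ratios were computed with a pseudocount of 1. Named genes were the 12 members of highest mean FPKM, those past the fold, Tnf, Il1b and Il6, their partners, pathway genes past the fold, and the members nearest to it. The list of myelinating Schwann cell markers is not reported here. The members and lists were chosen with earlier results of these data known. Transcript lengths came from GENCODE M21. Low FPKM fell on whole fragments for 97.2% of 1418 values in HSF WT, within 1%, and for 98.9% of 436 values in HSF V30M, within rounding, with 2 depths per group that differed 1.35 and 1.18 times. The steps and calls were tested on simulated data. Python 3.11.15, pandas 2.3.3, numpy 2.4.6, scipy 1.17.1 and matplotlib 3.10.9 were used. Alternatives were another pseudocount, scaling, minimum, fold and choice of members.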

Additional observations from a re-analysis of the deposited data

How the results depend on the processing

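No paired analysis was possible because each group has 1 pooled value per gene and no value per mouse, and leaving out each replicate could not be run for the same reason. With a pseudocount of 0.1, 7 members were higher and 14 were lower, and the 3 and 9 members of the main setting were among them. With a minimum of 5 FPKM, 2 members were higher and 2 were lower, and with a fold of 2, 0 were higher and 4 were lower, since stricter limits leave fewer genes. With no minimum FPKM 4 members were higher and 9 were lower, the added one being Tnfsf13os at a log2 ratio of 0.72. The median log2 ratio was then -0.057, as low genes with ratios near 0 enter. Scaling by the median of ratios changed no call. The added members at a pseudocount of 0.1 were Il11, Il12rb1, Il17rd and Tnfrsf4 (higher) and Il18, Il20rb, Il21r, Il7r and Tnfsf10 (lower), and 8 of the members that passed 1.5 did not pass 2.

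Further alternatives were chosen after seeing the data. Among 33 measured members that share their place in the table with no other gene, 2 were higher and 4 were lower, without Il4ra, Il2rg, Tnfrsf13b, Il17c, Il4i1 and Tnfsf12, and the median was -0.015, nearer to 0. Without a pseudocount 8 members were higher and 14 were lower. A median was counted as moved where it differed by over 1.5 times. By the lowest fragment numbers, low depth limits Tnfrsf13c, Tnfrsf13b, Il17c, Tnf and Il6 in particular. For Tnfrsf13b the transcripts allow up to 66 fragments in HSF V30M and 162 in HSF WT.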

Other observations

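Other cell markers also differed between the pooled groups. All 6 measured skeletal muscle markers were lower in HSF V30M, with sums of 42.5 and 161 FPKM and Ckm the most abundant by the mean of the groups, as for each list, at 8.97 and 43.8 FPKM. Of 8 adipocyte markers 3 were lower, with sums of 1340 and 1994 FPKM and Fabp4 the most abundant at 462 and 722 FPKM. Of 6 measured erythrocyte markers 5 were higher, with sums of 292 and 101 FPKM and Hbb-bs the most abundant at 111 and 37.1 FPKM. Both measured eosinophil markers were higher, with sums of 10.8 and 2.66 FPKM and Prg2 the most abundant at 5.75 and 0.806 FPKM.

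Of the 10 Schwann cell markers in the list kept apart from that of myelinating markers, 2 were higher and 1 was lower. They summed to 627 and 482 FPKM, with S100b the most abundant at 328 and 201 FPKM. Of 10 fibroblast markers 2 were lower, with sums of 2078 and 2249 FPKM and Dcn the most abundant at 1331 and 1320 FPKM. Of 7 perineurial markers 1 was higher and 1 lower, with sums of 519 and 436 FPKM and Itgb4 the most abundant at 310 and 257 FPKM. Of 10 endothelial markers 3 were higher, with sums of 379 and 291 FPKM and Egfl7 the most abundant at 95.5 and 78.6 FPKM. Keratinocyte markers summed to 1.46 and 1.497 FPKM, with Krt10 the most abundant at 0.79 and 1.15 FPKM and Krt1, Lor and Dsg3 listed at 0.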
